A study of Mus musculus with 6 samples.

Results

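The 10 genes described here, *Kit*, *Flt3*, *Cd34*, *Csf2rb*, *Hhex*, *Lyl1*, *Lmo2*, *Mef2c*, *Bcl11a* and *Cpa3*, are genes of early thymic progenitors and DN2 thymocytes. They were chosen by name from a table of 41457 genes, and all 10 passed the filter on low counts that left 12224 genes for testing. RNA was measured in CD4-CD8- double-negative (DN) thymocytes of 3 Nc1Bio and 3 BirA libraries. The study describes these cells as freshly isolated, and no stimulation is given for them. Nc1Bio mice (*Nfatc1/A-Bio.BirA*) carry, beside their own *Nfatc1* alleles, an added copy of the locus on a bacterial artificial chromosome (BAC), which encodes NFATc1 with a biotin tag, and the biotin ligase BirA from the *Rosa26* locus. BirA mice carry the ligase without the added copy, and the labels give their genotype as WT. All mice were of the C57/B6 background and 4 to 6 weeks old, and DN thymocytes were obtained by removing CD4+ and CD8+ cells on magnetic beads, so each library holds whatever other CD4- and CD8- cells the thymus contained. The added copy follows the regulatory sequence on the BAC in every cell that uses it, not in DN thymocytes alone. Separate animals are not named in the labels, and p-values therefore cover only library-to-library spread, which may be technical.

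Early thymic progenitors arrive from the bone marrow with the capacity to form several blood lineages. They bear the receptor tyrosine kinase Kit at high level and, in part, Flt3, and they retain transcription factors of stem and progenitor cells, among them LYL1, LMO2, MEF2C, BCL11A and HHEX. Under Notch signals the cells pass through the DN2 stage, switch on *Bcl11b* and *Il2ra*, commit to the T lineage and shut the progenitor genes off before the DN3 stage. In mice, NFATc1 is a calcium-regulated transcription factor that is expressed in DN thymocytes.

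Since NFAT proteins bind DNA at a short core, GGAAA, the promoters of the members were read for it. RefSeq promoters (GRCm38.p6), each from 250 bases before to 50 bases after a gene start, were given for 8 of the 10 members, with 11 starts in all. Those of *Cpa3*, *Hhex* and *Mef2c* (its most upstream start) are shown 5′ to 3′, with GGAAA or its reverse complement TTTCC in capitals, because the groups of these 3 genes did not overlap in the unique gene reads and their promoters span the range of match counts.
*Cpa3* (chr3:20242132-20242431, minus strand): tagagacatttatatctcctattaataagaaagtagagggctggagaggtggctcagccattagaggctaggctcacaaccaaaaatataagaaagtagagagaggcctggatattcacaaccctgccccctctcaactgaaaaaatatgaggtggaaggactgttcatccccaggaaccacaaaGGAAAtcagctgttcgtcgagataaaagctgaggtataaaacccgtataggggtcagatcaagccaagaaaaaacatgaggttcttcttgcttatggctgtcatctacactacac
*Hhex* (chr19:37434591-37434890, plus strand): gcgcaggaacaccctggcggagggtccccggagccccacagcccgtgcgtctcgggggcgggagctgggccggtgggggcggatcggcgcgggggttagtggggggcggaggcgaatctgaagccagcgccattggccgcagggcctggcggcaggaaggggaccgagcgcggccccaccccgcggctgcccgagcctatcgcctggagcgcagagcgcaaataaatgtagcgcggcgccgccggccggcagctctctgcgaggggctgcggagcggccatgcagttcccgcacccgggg
*Mef2c* (chr13:83503784-83504083, plus strand): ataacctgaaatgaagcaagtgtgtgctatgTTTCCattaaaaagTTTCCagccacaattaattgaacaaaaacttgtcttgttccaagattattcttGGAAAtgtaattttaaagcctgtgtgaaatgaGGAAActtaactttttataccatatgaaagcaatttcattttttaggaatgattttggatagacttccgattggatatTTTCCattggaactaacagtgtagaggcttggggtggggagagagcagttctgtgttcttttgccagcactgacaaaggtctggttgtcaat
The *Cpa3* promoter held 1 match, the *Hhex* promoter 0 and this *Mef2c* promoter 5. Of the 11 member promoters, 5 held the core, against 61.3% of the 32851 RefSeq promoters of the same length. The 11 windows are not 11 genes, because *Kit* and *Mef2c* have more than 1 start each. The *Kit* windows nearly coincide and held 0 matches, as did the further *Mef2c* windows. By gene the core was in 5 of the 8 members, *Cd34*, *Cpa3*, *Lyl1*, *Bcl11a* and *Mef2c*. The E-box CANNTG was in 8 of the 11, against 72.3% of all promoters, and GATA in 7 of the 11, against 57.9%. Both strands were searched for each, and matches of different motifs may overlap. These matches describe the letters in the windows only.

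The label of the groups was first checked by *Nfatc1* itself. *Nfatc1* had 573, 597 and 551 CPM (reads of the gene per 1000000 unique gene reads of the library, after scaling for library composition) in Nc1Bio, against 152, 128 and 96.8 CPM in BirA. The log2 fold change of Nc1Bio over BirA was 2.19 ± 0.16 (SE; edgeR quasi-likelihood test with Benjamini-Hochberg adjustment over all tested genes, adjusted p = 0.0141). It was the only gene of 12224 that edgeR called at an adjusted p below 0.05. The libraries held 11845952 to 15393763 unique gene reads. *Cd4* was at 0.834 to 5.40 CPM in Nc1Bio, against 2.57 to 6.85 CPM in BirA. *Thy1*, the gene of a thymocyte surface protein, was at 1608 to 2054 CPM in Nc1Bio, against 1629 to 1796 CPM in BirA. The CD8 genes were higher than *Cd4*. *Cd8a* had 4.25 to 12.1 CPM in Nc1Bio, against 5.21 to 14.0 CPM in BirA. *Cd8b1* had 16.0 to 24.1 CPM in Nc1Bio, against 14.5 to 33.7 CPM in BirA. *Rag1* was low, at 2.42 to 9.33 CPM in Nc1Bio, against 2.57 to 4.91 CPM in BirA. Globin genes took 6.66% to 26.7% of all gene reads in Nc1Bio and 7.50% to 19.9% in BirA.

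Of the 10 members, 9 had a lower fitted level in Nc1Bio than in BirA and 1, *Lmo2*, a higher one. Their median log2 fold change was -0.93, beside a median of -0.0026 over all tested genes, of which 50.4% were lower. None of the 10 was called in edgeR (adjusted p from 0.127 to 0.862), where 0% of all tested genes were called lower and 0.00818% higher. At an unadjusted p below 0.05, 3 members were lower (*Cpa3*, *Csf2rb* and *Hhex*) and 0 higher, against 7.66% of all tested genes that were lower and 4.31% that were higher. DESeq2, the tool of the study, called the same 3 members lower, against 2.16% of the genes it gave an adjusted p, and the same 3 on total gene reads, against 2.25%. edgeR without a filter on low counts called *Cpa3* and *Csf2rb* lower, against 0.697% of all genes with a read. In 5 members (*Kit*, *Csf2rb*, *Hhex*, *Mef2c* and *Cpa3*) the highest Nc1Bio library lay below the lowest BirA library, as it did in 9.98% of all tested genes. In 0 members was the order the reverse, which 8.45% of all tested genes showed. In a mixed population fewer cells of a type and less RNA per cell cannot be told apart.

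The summed CPM of the 10 members was 97.5, 99.0 and 91.2 in Nc1Bio, against 203, 228 and 199 in BirA. The groups were far apart on this sum and the libraries within each group close together, but members behind the sum shifted in opposite directions between libraries. From Nc1Bio replicate 1 to 3, *Kit* fell from 43.7 to 21.6 CPM while *Cpa3* rose from 18.2 to 34.9 CPM. The ratio of *Cpa3* to *Kit* was 0.417, 0.763 and 1.62 in Nc1Bio, against 1.10, 2.27 and 2.23 in BirA, so it overlapped. *Cpa3* and *Kit* made up most of the sum, 28.3% and 35.6% in Nc1Bio and 41.7% and 22.5% in BirA. The other 8 members summed to 34.6 ± 0.981 CPM in Nc1Bio, against 75.1 ± 29.6 CPM in BirA (SD, 3 libraries each). BirA replicate 1 was the highest of the 6 libraries for 6 members, and without it the median log2 fold change of the members was -0.49.

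**Figure D1:**
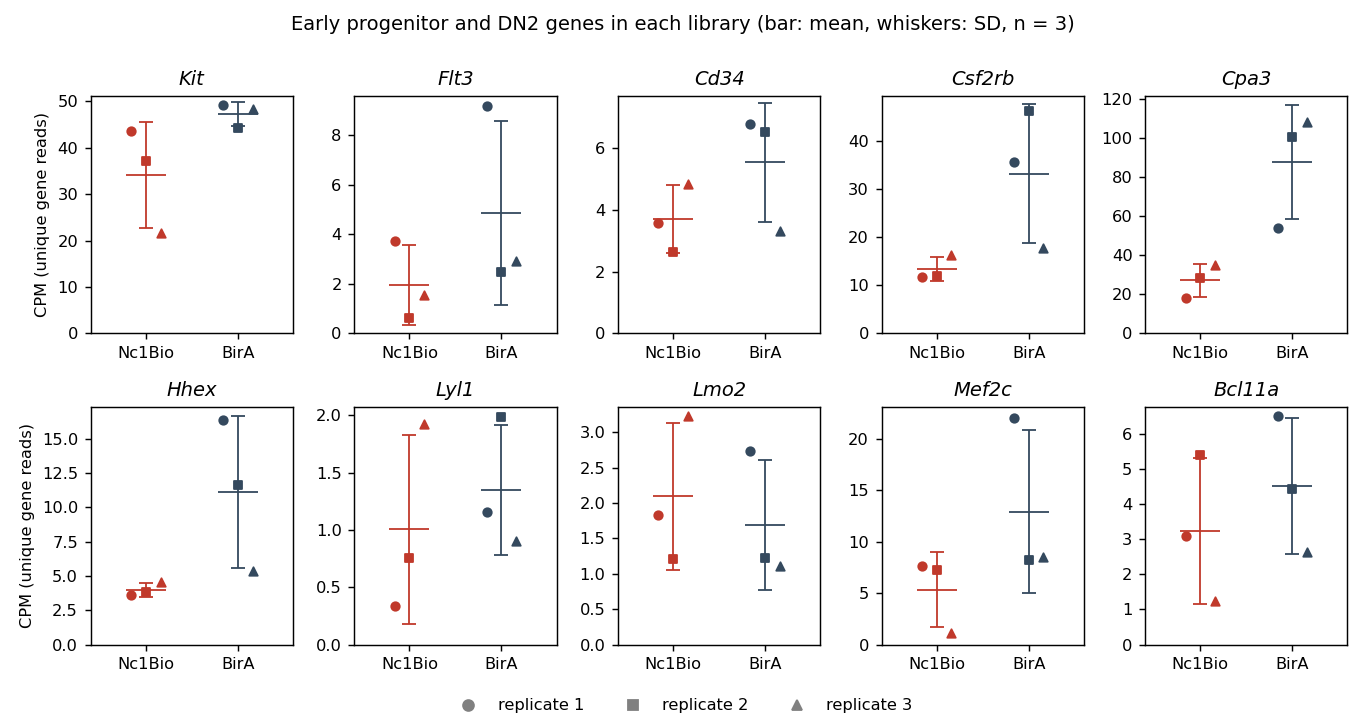
CPM of the 10 members in each library (y axis, from 0, its own scale in each panel), with Nc1Bio on the left and BirA on the right. Points are libraries, bars the means and whiskers the SD of 3 libraries; the groups are apart in *Kit*, *Csf2rb*, *Cpa3*, *Hhex* and *Mef2c* and overlap in the other 5 members.

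Of the receptors and surface proteins, *Kit* (ENSMUSG00000005672, chromosome 5, 75574916 to 75656722, plus strand, GRCm38) encodes the receptor for stem cell factor and is the defining surface marker of early thymic progenitors and DN2 cells. It had 43.7, 37.1 and 21.6 CPM in Nc1Bio, against 49.2, 44.4 and 48.4 CPM in BirA. The BirA libraries were close together, and the gap between the groups was narrow except for Nc1Bio replicate 3. The log2 fold change was -0.47 ± 0.23 (SE, edgeR adjusted p = 0.473), and without Nc1Bio replicate 3 it was -0.22.

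*Csf2rb* (ENSMUSG00000071713, chromosome 15, 78325752 to 78353847, plus strand) encodes the common beta chain that the receptors for IL-3, IL-5 and GM-CSF share. It had 11.7, 12.0 and 16.2 CPM in Nc1Bio, against 35.4, 46.2 and 17.6 CPM in BirA. BirA replicate 3 lay just above the highest Nc1Bio library, and the other BirA libraries well above. The log2 fold change was -1.31 ± 0.34 (SE, edgeR adjusted p = 0.237; DESeq2 adjusted p = 0.00159). In DESeq2 the call was lost without Nc1Bio replicate 1 (adjusted p = 0.0661), Nc1Bio replicate 2 (0.100), BirA replicate 1 (0.0744) or BirA replicate 2 (0.163).

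*Csf2rb* has a near copy on the same chromosome, *Csf2rb2*, whose product serves the IL-3 receptor of the mouse. *Csf2rb2* had 5.66, 2.73 and 7.48 CPM in Nc1Bio, against 6.71, 15.0 and 4.93 CPM in BirA, and its groups overlapped (log2 fold change -0.75 ± 0.51, edgeR adjusted p = 0.595). Unique gene reads were 85.0% of the total gene reads of *Csf2rb* and 85.9% of those of *Csf2rb2*, so the split between the copies is uncertain for the rest. Of the alpha chains, *Il3ra* had 13.0, 11.8 and 11.3 CPM in Nc1Bio, against 7.65, 6.98 and 9.66 CPM in BirA, with the groups apart in the opposite direction (log2 fold change 0.57 ± 0.22, edgeR unadjusted p = 0.0331, adjusted p = 0.388). *Csf2ra* and *Il5ra* had log2 fold changes of 0.12 and -0.41 (edgeR adjusted p = 0.868 and 0.719).

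*Flt3* (ENSMUSG00000042817, chromosome 5, 147330741 to 147400489, minus strand), the receptor for FLT3 ligand, marks the least advanced thymic progenitors and is also used by dendritic cells. It had 3.75, 0.607 and 1.54 CPM in Nc1Bio, against 9.17, 2.50 and 2.92 CPM in BirA. The groups overlapped, and BirA replicate 1 stood above the other 5 libraries. Its log2 fold change, -1.31 ± 0.75 (edgeR adjusted p = 0.528), became -0.47 without that library. *Cd34* (ENSMUSG00000016494, chromosome 1, 194938819 to 194961279, plus strand), a sialomucin of progenitors, mast cells and endothelium, had 3.58, 2.65 and 4.86 CPM in Nc1Bio, against 6.79, 6.53 and 3.33 CPM in BirA. BirA replicate 3 lay inside the Nc1Bio range (log2 fold change -0.58 ± 0.41, edgeR adjusted p = 0.599). The genes of the ligands were near 0: *Kitl* and *Flt3l*, for Kit and Flt3, had at most 0.303 and 0.50 CPM in any library, and *Il3* had no read.

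*Cpa3* (ENSMUSG00000001865, chromosome 3, 20215620 to 20242181, minus strand) encodes carboxypeptidase A3, a granule protease of mast cells that is also transcribed in early T and other blood progenitors. It had 18.2, 28.3 and 34.9 CPM in Nc1Bio, against 54.1, 101 and 108 CPM in BirA. The groups were apart, with BirA replicate 1 the lowest of its group. The mean was 27.2 ± 8.40 CPM in Nc1Bio, against 87.5 ± 29.2 CPM in BirA (SD, 3 libraries each), and the log2 fold change, -1.69 ± 0.31 (SE), was the largest of the 10. Its edgeR adjusted p was 0.127 (unadjusted p = 0.000649, rank 62 of 12224), and its DESeq2 adjusted p was 2.50e-08. DESeq2 called it lower with any 1 of the 6 libraries left out, with log2 fold changes from -1.94 to -1.47.

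Of the transcription factors, *Hhex* (ENSMUSG00000024986, chromosome 19, 37434810 to 37440731, plus strand) encodes a homeobox factor of blood progenitors that is also used by B cells. It had 3.58, 3.79 and 4.55 CPM in Nc1Bio, against 16.4, 11.7 and 5.35 CPM in BirA. The Nc1Bio libraries were close together, and BirA replicate 3 was near them. The log2 fold change was -1.48 ± 0.41 (SE, edgeR adjusted p = 0.268; DESeq2 adjusted p = 0.0200). The DESeq2 call was kept without BirA replicate 3 and lost without each of the other 5 libraries in turn, with adjusted p from 0.0553 (without Nc1Bio replicate 3) to 0.393 (without BirA replicate 1).

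*Mef2c* (ENSMUSG00000005583, chromosome 13, 83504034 to 83667080, plus strand) encodes a MADS box factor of lymphoid progenitors, B cells and myeloid cells. It had 7.66, 7.21 and 1.16 CPM in Nc1Bio, against 22.1, 8.20 and 8.55 CPM in BirA. The groups were apart by a small margin, with Nc1Bio replicate 3 far below and BirA replicate 1 far above the rest. The log2 fold change was -1.28 ± 0.67 (SE, edgeR adjusted p = 0.489), and without those 2 libraries it was -0.17. *Bcl11a* (ENSMUSG00000000861, chromosome 11, 24078056 to 24174123, plus strand), a zinc finger factor of progenitors and B cells, had 3.08, 5.39 and 1.23 CPM in Nc1Bio, against 6.50, 4.42 and 2.64 CPM in BirA. Its groups overlapped (log2 fold change -0.48 ± 0.58, edgeR adjusted p = 0.777), and without the same 2 libraries it was 0.26.

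*Lyl1* (ENSMUSG00000034041, chromosome 8, 84701457 to 84704715, plus strand) encodes a basic helix-loop-helix factor, and *Lmo2* (ENSMUSG00000032698, chromosome 2, 103957986 to 103981878, plus strand) the LIM-only protein that joins such factors to LDB1. *Lyl1* had 0.333, 0.759 and 1.93 CPM in Nc1Bio, against 1.16, 1.98 and 0.903 CPM in BirA (log2 fold change -0.42 ± 0.71, edgeR adjusted p = 0.846). *Lmo2* had 1.83, 1.21 and 3.24 CPM in Nc1Bio, against 2.74, 1.22 and 1.11 CPM in BirA (log2 fold change 0.31 ± 0.58, edgeR adjusted p = 0.862). Both overlapped between the groups, and both rested on few reads, 4 to 31 per library for *Lyl1* and 16 to 42 for *Lmo2*. Without Nc1Bio replicate 1 the value of *Lyl1* was 0.0022, and without Nc1Bio replicate 3 that of *Lmo2* was -0.15.

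The partners with which LMO2 and LYL1 form complexes lay on both sides of 0. Of 12 genes, 10 were tested, 4 of them lower and 6 higher, with a median log2 fold change of 0.10. The adaptor gene *Ldb1* had 208 ± 20.4 CPM in Nc1Bio, against 217 ± 7.17 CPM in BirA (SD, 3 libraries each), and its log2 fold change was -0.06. *Ssbp3*, whose product binds LDB1, had 305, 334 and 275 CPM in Nc1Bio, against 233, 240 and 251 CPM in BirA. Its groups were apart (log2 fold change 0.34 ± 0.10, edgeR unadjusted p = 0.00971, adjusted p = 0.292). *Gata3* (-0.41) and *Tcf12* (0.18), the tested partners of next lowest p, had edgeR adjusted p of 0.488 and 0.520, and *Tal1* was below the filter with 0.361 to 0.925 CPM.

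The order of the levels can be read per length of exon, from unique exon reads. In Nc1Bio, *Cpa3* was highest at 17.3 ± 5.84 CPM per kilobase of exon (SD, n = 3), followed by *Kit* at 3.88 ± 1.30, *Hhex* at 2.11 ± 0.266 and *Csf2rb* at 1.85 ± 0.353, of which *Hhex* and *Csf2rb* do not differ beyond their spread. In BirA, *Cpa3* was again highest at 56.5 ± 19.2 CPM per kilobase, and *Hhex* at 5.85 ± 2.97, *Kit* at 5.37 ± 0.330 and *Csf2rb* at 4.61 ± 2.03 do not differ beyond their spread. The remaining 6 members lay between 0.225 and 0.984 CPM per kilobase in Nc1Bio, against 0.297 to 0.806 CPM per kilobase in BirA. For *Lyl1*, *Lmo2*, *Cd34* and *Bcl11a* the unique reads are only part of the total gene reads, and the order depends on the reads counted. On total exon reads *Lmo2* was at 4.87, *Lyl1* at 2.99 and *Kit* at 2.76 CPM per kilobase in Nc1Bio. In BirA *Lyl1* was at 5.07, *Lmo2* at 4.52 and *Kit* at 3.83 CPM per kilobase, with *Cpa3* still highest in both groups.

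The deposited tables count reads in several ways, and 4 members had few unique gene reads for their total. Unique gene reads were 11.7% of the total gene reads for *Lyl1*, 13.2% for *Lmo2*, 35.6% for *Cd34* and 36.4% for *Bcl11a*, but 85.0% or more for the other 6. Each of these 4 overlaps another annotated gene: *Lyl1* lies within *Nfix*, *Lmo2* overlaps *4931422A03Rik*, and *Cd34* and *Bcl11a* have antisense transcripts. *Flt3* (an antisense transcript), *Csf2rb* and *Cpa3* (a miRNA gene each) also overlap one and kept 96.6%, 85.0% and 100% of their reads as unique. The use of strand is not stated for these counts, so reads of the overlapping genes cannot be told apart. On total gene reads *Lyl1* had 5.03, 4.72 and 6.15 CPM in Nc1Bio, against 8.49, 9.17 and 9.60 CPM in BirA. These groups were apart, with narrow ranges that the unique reads did not have, and the log2 fold change was -0.78 ± 0.22 (edgeR unadjusted p = 0.00847, adjusted p = 0.288). All 99 unique reads of *Lyl1* spanned a splice junction, and fitted on such reads alone it was at -0.44 ± 0.64 (edgeR unadjusted p = 0.510). The narrow ranges therefore rest on reads not unique to *Lyl1*. On total gene reads the log2 fold change of *Cd34* was -0.81 ± 0.35 (adjusted p = 0.434) and that of *Bcl11a* -0.55 ± 0.51 (0.709). *Lmo2* stayed close to 0 at 0.11 ± 0.55 (adjusted p = 0.953).

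Reads that span a splice junction come from processed RNA of the gene itself and were fitted as well. *Cpa3* had 91, 172 and 174 spliced reads in Nc1Bio, against 307, 631 and 626 in BirA, and *Csf2rb* 22, 21 and 19 in Nc1Bio, against 76, 100 and 50 in BirA. Their log2 fold changes on spliced reads were -1.65 ± 0.27 (edgeR adjusted p = 0.0859; DESeq2 adjusted p = 1.15e-07) and -1.67 ± 0.34 (edgeR adjusted p = 0.182; DESeq2 adjusted p = 0.0215). edgeR called none of the members on spliced reads, where 0.0107% of all tested genes were called lower. For *Csf2rb*, BirA replicate 3 was well above the Nc1Bio libraries on these reads. DESeq2 called these 2 of the 10 members on spliced reads, against 0.842% of all genes with an adjusted p. *Mef2c* had 12, 10 and 5 spliced reads in Nc1Bio, against 12, 12 and 16 in BirA. Its groups touched in these raw counts, and the log2 fold change was -0.37 ± 0.56, compared with -1.28 on unique gene reads. Spliced reads were 14.4% of its unique exon reads in Nc1Bio and 7.50% in BirA. *Hhex*, with 30 spliced reads in Nc1Bio and 64 in BirA in all, was at a log2 fold change of -0.91 ± 0.63 there (adjusted p in edgeR = 0.673). Of the members only *Cpa3* had enough intron reads to be tested, with 21, 17 and 14 in Nc1Bio, against 40, 68 and 40 in BirA, and its intron log2 fold change was -1.17 ± 0.39 (edgeR unadjusted p = 0.0118, adjusted p = 0.985).

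**Figure D2:**
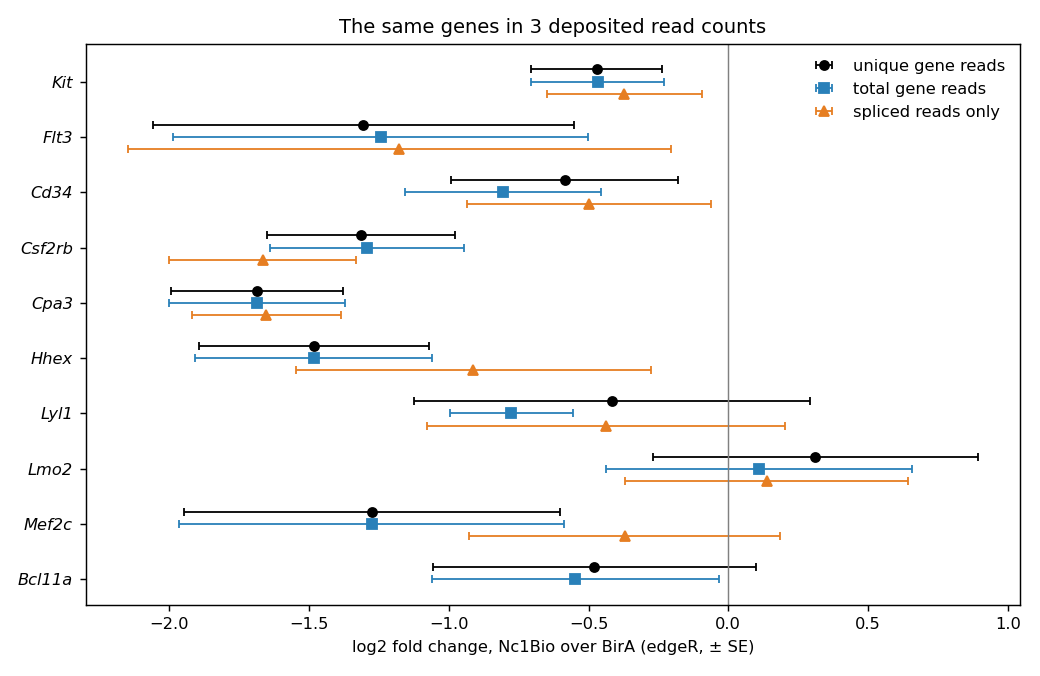
Log2 fold change of Nc1Bio over BirA (x axis, edgeR, whiskers ± SE) for each member (y axis) on unique gene reads, total gene reads and spliced reads, each fitted over all genes. *Cpa3* stays between -1.69 and -1.65, *Mef2c* and *Hhex* move to -0.37 and -0.91 on spliced reads, *Lyl1* has its smallest SE on total reads, and *Bcl11a* has no spliced value because its 55 spliced reads did not pass the filter. The unique and the spliced reads of *Lyl1* are the same 99 reads.

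Other genes of the progenitor state were set beside the members. Of 25 such genes 24 were tested, 15 of them lower and 9 higher, and the median log2 fold change was -0.33. None was called in edgeR, where 2 were lower and 2 higher at an unadjusted p below 0.05. *Kdm5b*, a histone demethylase gene, had 59.8, 75.7 and 62.7 CPM in Nc1Bio, against 92.8, 106 and 99.0 CPM in BirA, and its groups were apart (log2 fold change -0.59 ± 0.12, edgeR adjusted p = 0.153; DESeq2 adjusted p = 0.00519). *Fli1*, an Ets family factor gene of blood progenitors and early thymocytes, was at a log2 fold change of -0.40 ± 0.12 (adjusted p in edgeR = 0.304). *Hoxa7* had 42.1, 30.0 and 33.9 CPM in Nc1Bio, against 9.17, 13.1 and 30.2 CPM in BirA, with BirA replicate 3 level with Nc1Bio (log2 fold change 1.01 ± 0.40, edgeR adjusted p = 0.392). The progenitor genes therefore did not all lie on the same side.

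The genes that rise at T-lineage commitment lay mostly on the other side. All 20 were tested, 16 were higher and 4 lower in Nc1Bio, and the median log2 fold change was 0.21. None was called in edgeR, where 4 were higher at an unadjusted p below 0.05, and DESeq2 called 3 higher, against 0.32% of genes with an adjusted p. *Ptcra*, the gene of the pre-TCR alpha chain, had 16.5, 34.3 and 17.9 CPM in Nc1Bio, against 9.46, 9.73 and 10.7 CPM in BirA (log2 fold change 1.20 ± 0.29, edgeR adjusted p = 0.222; DESeq2 adjusted p = 0.00513). *Notch3* (0.49 ± 0.13) and *Lef1* (0.43 ± 0.11) also had groups that did not overlap, with DESeq2 adjusted p of 0.0343 and 0.0478. *Il2ra*, which marks DN2 and DN3 cells, had 772, 656 and 559 CPM in Nc1Bio, against 344, 330 and 624 CPM in BirA, so BirA replicate 3 lay inside the Nc1Bio range (0.61 ± 0.25, edgeR adjusted p = 0.403). *Bcl11b*, the commitment factor gene, which was picked for its role after its values were seen, had 339 ± 48.9 CPM in Nc1Bio, against 337 ± 3.08 CPM in BirA (SD, 3 libraries each). *Cd44*, which early progenitors and DN2 cells share with many mature leukocytes, had 53.6, 35.7 and 71.8 CPM in Nc1Bio, against 118, 125 and 40.0 CPM in BirA, and its groups overlapped (log2 fold change -0.82 ± 0.42, edgeR adjusted p = 0.483).

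**Figure D3:**
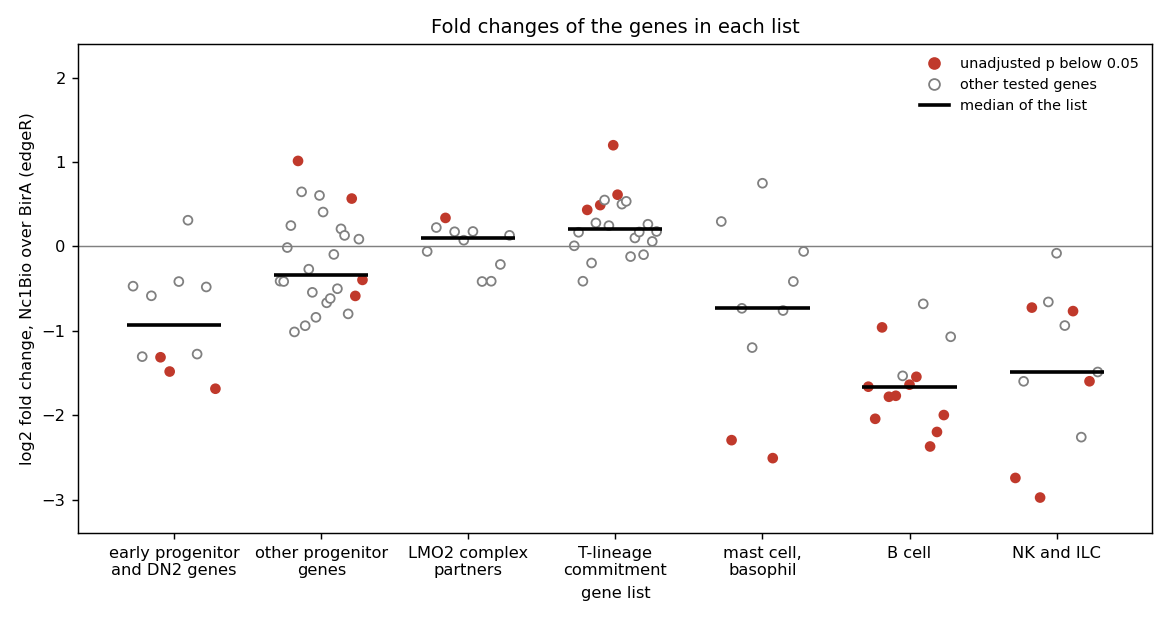
Log2 fold change of Nc1Bio over BirA (y axis, edgeR on unique gene reads) for each tested gene of 7 lists (x axis); red points have an unadjusted p below 0.05 and black bars are the medians. The members have a median of -0.93, the other progenitor genes -0.33, the LMO2 complex 0.10 and the commitment genes 0.21, while mast cell and basophil, B cell and NK and innate lymphoid markers have medians of -0.73, -1.66 and -1.49.

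Several members are also expressed outside the T lineage, so markers of the other cells that CD4 and CD8 depletion leaves were read in the same libraries. For *Cpa3*, *Kit* and *Cd34* these are mast cells. Of 13 mast cell and basophil markers 9 were tested, 7 lower and 2 higher, and their sum was 10.8 to 76.2 CPM in Nc1Bio, against 26.9 to 123 CPM in BirA. *Hdc* made up 55.9% of that sum in Nc1Bio and 60.6% in BirA. It was highest in BirA replicate 2 (82.5 CPM), as the granulocyte marker sum was. Without *Hdc* the sum was 7.75 to 31.8 CPM in Nc1Bio, against 7.65 to 40.7 CPM in BirA, so the groups overlapped. The tryptase gene *Tpsb2* had 0.583, 0.834 and 0.925 CPM in Nc1Bio, against 2.89, 7.88 and 2.71 CPM in BirA (log2 fold change -2.51 ± 0.57, edgeR adjusted p = 0.194; DESeq2 adjusted p = 0.00724). The chymase gene *Cma1* was at -2.30 ± 0.89 on the log2 scale (edgeR adjusted p = 0.388). *Mcpt2* (-1.20) and *Mcpt8* (0.75) were the tested markers of next lowest p, with edgeR adjusted p of 0.533 and 0.770. Of the defining markers, *Tpsab1* had no read in any library and *Fcer1a* at most 0.167 CPM. These markers moved with *Cpa3* in part, and their part in its difference was not tested.

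For *Hhex*, *Mef2c* and *Bcl11a* the cells in question include B cells. Of 15 B cell markers 13 were tested and all 13 were lower, 10 of them at an unadjusted p below 0.05, and the median log2 fold change was -1.66. edgeR called none of them and DESeq2 called 6 lower. Their sum was 311 to 1604 CPM in Nc1Bio, against 1694 to 2196 CPM in BirA. *Ighm*, the IgM heavy chain gene, made up 91.0% of that sum in Nc1Bio and 85.0% in BirA, and the other 14 markers summed to 74.5 to 125 CPM in Nc1Bio, against 174 to 509 CPM in BirA. *Ms4a1*, which encodes CD20, had 2.50, 1.14 and 4.16 CPM in Nc1Bio, against 11.6, 7.56 and 7.71 CPM in BirA. The 4 of lowest p, *Fcrla*, *Ms4a1*, *Cd22* and *Vpreb3*, had log2 fold changes of -2.20, -1.78, -2.00 and -1.55. BirA replicate 1 was the highest library for *Ms4a1*, as it was for *Hhex*, *Mef2c*, *Bcl11a*, *Flt3*, *Kit* and *Cd34*. The part of B cells in these members was not tested.

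NK and innate lymphoid markers were lower in 11 of the 11 tested, of a list of 14, 5 of them at an unadjusted p below 0.05, and summed to 391 to 544 CPM in Nc1Bio, against 759 to 908 CPM in BirA. Without *Gzma*, which made up 80.7% of the sum in Nc1Bio and 75.1% in BirA, the groups overlapped, at 74.2 to 117 CPM in Nc1Bio and 105 to 354 CPM in BirA. *Gzmb* (log2 fold change -2.98), *Gzma* (-0.72) and *Id2* (-1.60) were among those with the lowest p. Macrophage markers, which bear on *Csf2rb*, were lower in 11 of the 11 tested with 0 at an unadjusted p below 0.05, and summed to 292 to 689 CPM in Nc1Bio, against 147 to 1155 CPM in BirA, of which *Lyz2* made up 81.7% in Nc1Bio and 77.4% in BirA. Granulocyte markers were lower in 10 of the 14 tested and summed to 429 to 5938 CPM in Nc1Bio, against 518 to 9632 CPM in BirA, so the groups overlapped. In BirA replicate 3, where macrophage and granulocyte markers were at 147 and 518 CPM, *Cpa3* was at its highest and *Csf2rb* at the lowest of its group. Other libraries were ordered otherwise. BirA replicate 1 had these markers at 703 and 537 CPM, with *Csf2rb* at 35.4 and *Cpa3* at 54.1 CPM. Nc1Bio replicate 3 had them at 689 and 5938 CPM, with *Csf2rb* at 16.2 and *Cpa3* at 34.9 CPM. Dendritic cell markers bear on *Flt3*, and 6 of 8 tested were lower for conventional cells and 5 of 8 for plasmacytoid cells. At an unadjusted p below 0.05 in edgeR, 2 of each list were lower and 0 higher. For conventional cells they were *Ccr7* (log2 fold change -1.22, edgeR adjusted p = 0.110, DESeq2 adjusted p = 0.000233, groups apart) and *Itgax* (-0.74). For plasmacytoid cells they were *Pacsin1* (-1.51) and *Ccr9* (-1.45). *Siglech*, of the plasmacytoid list, was below the filter, with 3.50, 0.152 and 0.771 CPM in Nc1Bio, against 0.505, 0.448 and 0.973 CPM in BirA. Its groups overlapped, and its mean was the higher one in Nc1Bio (1.47 CPM, against 0.642 CPM in BirA). The marker sums overlapped between the groups for conventional cells (156 to 202 CPM in Nc1Bio, against 149 to 256 CPM in BirA). *Wdfy4* (log2 fold change 0.35) made up 54.5% of that sum in Nc1Bio and 34.8% in BirA. Without *Wdfy4* the sum was 59.1 to 95.8 CPM in Nc1Bio, against 88.0 to 177 CPM in BirA. Sums also overlapped for plasmacytoid cells (566 to 764 CPM in Nc1Bio, against 475 to 657 CPM in BirA), where *Ly6d* made up 61.9% of the sum in Nc1Bio and 57.2% in BirA. Without *Ly6d* that sum was 205 to 268 CPM in Nc1Bio, against 195 to 284 CPM in BirA. Of the 13 endothelial markers, which bear on *Cd34*, 3 were tested, 1 lower and 2 higher, with 0 at an unadjusted p below 0.05 and a median log2 fold change of 0.41. They summed to 104 to 113 CPM in Nc1Bio, against 99.3 to 132 CPM in BirA, and to 9.66 to 14.0 CPM in Nc1Bio, against 8.71 to 9.38 CPM in BirA, without *Pecam1*. *Tie1*, *Emcn* and *Sox17* had no read in any library. Of the 13 erythroid and platelet markers 9 were tested, 1 lower and 8 higher, with 0 at an unadjusted p below 0.05. Their median log2 fold change was 0.58, and they summed to 17669 to 97669 CPM in Nc1Bio, against 20082 to 66160 CPM in BirA. *Hbb-bs* made up 63.6% of that sum in Nc1Bio and 66.9% in BirA. *Lmo2* and this sum were both highest in Nc1Bio replicate 3, but lowest in BirA replicate 3 and Nc1Bio replicate 2, respectively. The part of these cells in the members' differences was not tested.

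**Figure D4:**
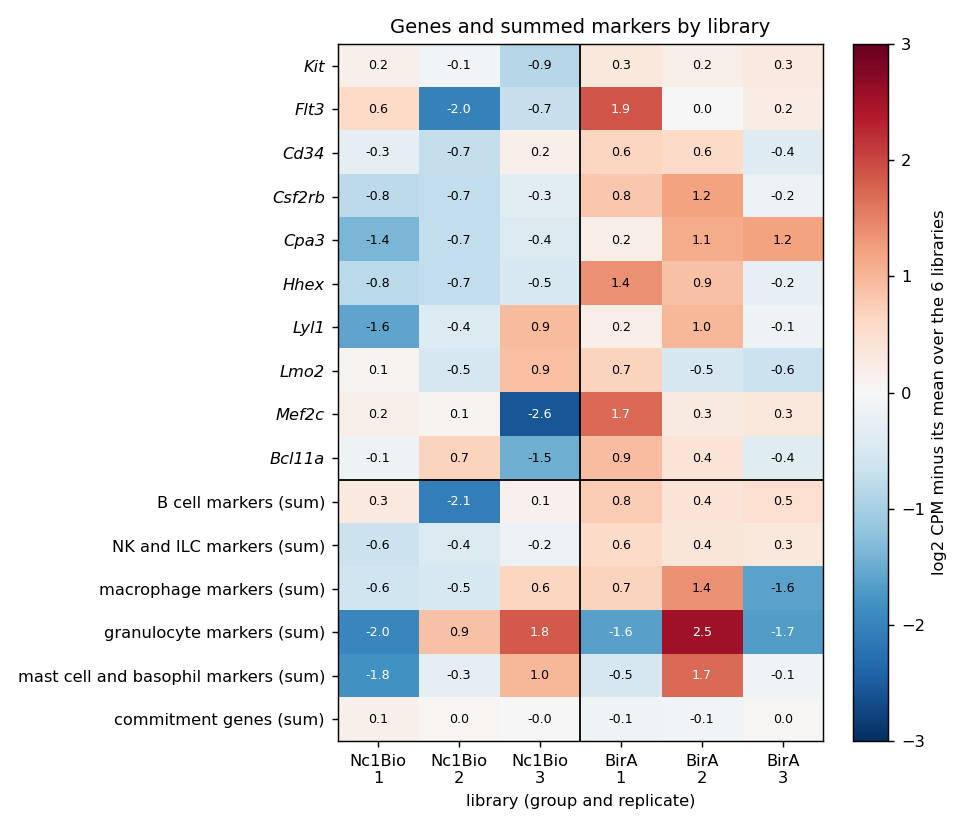
Log2 CPM of each member and of the summed markers of other cells (y axis), less the mean over the 6 libraries (colour and number in each cell), by library (x axis, Nc1Bio left and BirA right of the line). *Cpa3*, *Csf2rb* and *Hhex* are below their mean in all 3 Nc1Bio libraries, and *Csf2rb* and *Hhex* are below it in BirA replicate 3 as well. B cell and NK and innate lymphoid sums are highest in BirA replicate 1, and granulocyte sums in BirA replicate 2.

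The genes with the profiles most like each member were sought among 11115 tested genes of at least 1 CPM on average, by the root mean square distance between log2 CPM profiles centred over the 6 libraries. The nearest to *Cpa3* were *Cybrd1*, *Ptgir* and *Etv5*, at distances of 0.20, 0.20 and 0.23. *Etv5*, an Ets family factor gene, had a mean of 102 CPM in Nc1Bio, against 264 CPM in BirA. The nearest to *Csf2rb* were *Lst1*, *Atp6v0a1* and *Cd101* (0.17 to 0.22), and to *Hhex* *Card6*, *Man1c1* and *Neurl3* (0.20 to 0.24). *Flt3* was nearest to *Fzd3*, *Serpina3g* and the class II gene *H2-Aa* (0.21 to 0.26), and *Mef2c* was close to *H2-T24* and *Lrrk1* (0.17 and 0.21). *Kit* was nearest to *Rbm4b*, *Rffl* and *Zbtb49* (0.07 to 0.09), *Cd34* to *Adgre5*, *Gcnt1* and *Cpd* (0.09 to 0.11), *Lmo2* to *Ccndbp1*, *Styx* and *Ntm* (0.13 to 0.16), *Lyl1* to *Zfp608*, *Cd80* and *Tbxas1* (0.23 to 0.24) and *Bcl11a* to *Slc35d2*, *Rfx5* and *Epha2* (0.21 to 0.24). No member was among the 3 nearest genes of another. With 6 libraries in 2 groups, many genes share such a profile, and the likeness is a description only.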

How the data were processed

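Poly(A) libraries from DN thymocytes of 3 Nc1Bio and 3 BirA samples had been sequenced as single reads of 59 bases. The methods of the study name cutadapt, STAR, GRCm38, featureCounts and DESeq2; the layout of the deposited tables is not that of featureCounts, and no source used here names the program that wrote them. The authors deposited, for each library, counts of reads as whole numbers for 41457 genes (gene, exon, exon-exon and intron reads, each unique or total). RPKM, TPM and expression columns were not used.

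Unique gene reads (64.1% to 76.0% of total gene reads) were tested with edgeR 4.0.16 (R 4.3.3; filterByExpr, TMM, quasi-likelihood test, genotype as the sole term, Benjamini-Hochberg over all 12224 tested genes, threshold 0.05). CPM used TMM-scaled library sizes. The SE was the absolute log2 fold change divided by the root of F. The script was tested on simulated data. Alternatives were DESeq2 1.42.0, limma-voom (limma 3.58.1), RLE size factors, other filters (none, or 1 CPM in at least 3 libraries), non-legacy edgeR, a replicate block, total gene, unique exon and total exon reads, removal of globin genes, removal of each library, and removal of BirA replicate 1 and Nc1Bio replicate 3 together. DESeq2 on total gene reads, with each library removed, and spliced reads in both tools were chosen after seeing the data. No pair of libraries was alike within sampling noise.

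The members, the gene lists and the tests were chosen with earlier results of these data known. The text names all members, *Nfatc1*, up to 4 tested genes of lowest p and the partners of members in the lists it describes, and the 3 nearest profiles of each member. *Cd4*, *Cd8a*, *Cd8b1*, *Rag1*, *Thy1*, *Bcl11b* and *Siglech* were added for their role after their values were seen. Where a single gene made up much of a marker sum, that gene is named as well. Counts are reads, not molecules.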

Additional observations from a re-analysis of the deposited data

How the results depend on the processing

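The median log2 fold change of the members was negative under every alternative, from -1.18 to -0.47, and without 1 library from -1.18 to -0.49, the least in size being without BirA replicate 1. *Cpa3*, *Csf2rb*, *Hhex*, *Kit*, *Flt3*, *Cd34* and *Mef2c* were below 0 in all 27 alternatives. *Cpa3* was called in 11 of them (log2 fold change from -2.16 to -1.46, adjusted p from 4.16e-11 to 0.424), *Csf2rb* in 6 (adjusted p from 1.27e-07 to 0.581) and *Hhex* in 3 (adjusted p from 9.16e-05 to 0.866), by DESeq2, by edgeR without a filter or with the replicate block only. The calls of members thus changed with the tool, the filter, the replicate block, the read type and the libraries used. edgeR with RLE size factors, the stricter filter, non-legacy mode, other gene or exon reads or no globin genes, and limma-voom, called 0 members. Members called lower numbered 2 without a filter on low counts, 3 in DESeq2 on unique or total gene reads, 2 in DESeq2 on spliced reads and 2 at the threshold of the study (adjusted p below 0.01 and absolute log2 fold change above 0.5), and genes called in all 156, 326, 350, 105 and 183. edgeR on spliced reads called 3 genes, and edgeR without BirA replicate 1 and Nc1Bio replicate 3 together also 3. With 1 library left out, in either tool, 0 to 668 genes and 0 to 3 members were called, and *Nfatc1* was not called in edgeR without Nc1Bio replicate 1, 2 or 3 or BirA replicate 2.

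No clear pairing by replicate number was seen, and the check cannot exclude one: deviations of same-numbered libraries correlated at 0.33, 0.12 and -0.10 across genes. Nc1Bio replicates 1 and 2 correlated best with their own number, replicate 2 narrowly (0.118, against 0.105 with BirA replicate 3). Nc1Bio replicate 3 did so with BirA replicate 2 (0.25). With the replicate block edgeR called 2 genes and 1 member, *Cpa3* (adjusted p = 0.0368), whose SE was 0.11, compared with 0.31 without the block.

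Directions turned for 3 members of low or shared reads. *Lmo2* ran from -0.15 (without Nc1Bio replicate 3, in both tools) to 0.85, *Lyl1* from -1.39 to 0.0022 (without Nc1Bio replicate 1), and *Bcl11a* from -1.07 to 0.26 (without BirA replicate 1 and Nc1Bio replicate 3) and was 0.014 in DESeq2 on spliced reads. The cause was not tested. Over all libraries *Lyl1* had 99 unique of 844 total gene reads and *Lmo2* 153 of 1158.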
